A study of Canis lupus familiaris with 7 samples.

Results

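The RAB small GTPases were examined as a family in the left ventricle of dogs on a low-salt diet. Members were all probe sets whose single gene symbol in the platform annotation was RAB followed by a number and, where present, a letter and a further digit. By this rule 99 of 42924 probe sets, standing for 55 of 15115 named genes, belonged to the family. The naming rule itself reads no measured value. Of the 99 probe sets, 73 from 44 genes were bright enough to be tested, and the 26 others are described by their signal only. RAB21, RAB33B, RAB39B and RAB43 had no probe set under their symbol and were not analysed here.

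RAB proteins are small GTPases that mark the membranes of the secretory and endocytic pathways. In the GTP-bound state they recruit effectors that carry, tether and fuse vesicles, and they are switched on by exchange factors and off by GTPase-activating proteins. Their lipid tails are added with the help of a RAB escort protein, and GDP dissociation inhibitors hold the inactive proteins in the cytosol. In heart muscle, RAB proteins are known for moving ion channels, receptors and glucose transporters between the cell interior and the sarcolemma, and for handing cargo to lysosomes.

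The 7 arrays were hybridised with total RNA of the left ventricle (LV) of adult male mongrel dogs. The low-salt group held 4 arrays, numbered 1 to 4, of dogs that ate food holding 0.5% sodium chloride over 2 weeks. The control group held 3 arrays, numbered 1, 3 and 4; the sources used here do not give the salt content of its diet or its feeding time. The study compared the groups in order to find mechanisms by which a low-salt diet may act on the heart. The design text names 10 dogs and does not say how they map to the 4 low-salt arrays. No array is labelled as pooled, and the labels do not say that each came from a separate animal, so the p-values rest on the spread between arrays, which may be technical.

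The deposited values had been scaled to a common trimmed mean, but array medians lay at 19.3 to 44.2 signal units in low salt and 31.5 to 51.3 in control. Low-salt array 3 and control array 4 stood apart: their correlation over all tested probe sets was 0.947, whereas control array 4 reached 0.901 and 0.919 with the other control arrays. The RAB1B probe set called below and the counts over the family and the array are also given without them. Most other named results are not. Leaving these arrays out was decided after seeing the data. The ratio of the 3' to the 5' GAPDH control probe sets, a sign of RNA quality, averaged 17.7 ± 3.46 in low salt (SD, n = 4) and 29.3 ± 10.0 in control (SD, n = 3), with an exact two-sided permutation p of 0.0571, the smallest that 35 splits allow.

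The heart label was borne out by the 9 cardiomyocyte markers on the array, whose summed signal was 69549 to 94550 in low salt and 69582 to 109446 in control. Summed mast cell markers were 181 to 275 in low salt and 285 to 506 in control, and summed fast skeletal muscle markers 25.1 to 91.0 in low salt and 222 to 405 in control (exact permutation p = 0.0571 each). Of the skeletal muscle list, TNNI2 fell by 2.38 on the log2 scale (limma, adjusted p = 0.0411), while MYH1 and TNNT3 were too dim to test. The other tested gene, MYH2, did not fall, with a change of 0.10 (limma, adjusted p = 0.940). The mast cell markers did not move together either. KIT had a change of -1.06 and FCER1A -0.45, whereas CPA3 had 0.26 (limma, adjusted p = 0.293, 0.596 and 0.887). In none of the 12 marker lists was any value exactly 0. For the other 10 lists the exact permutation p was 0.286 or more. The part of these shifts in the results below was not tested, and in bulk tissue fewer cells of a type and less RNA per cell cannot be told apart.

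The brightest RAB signals came from genes of basic membrane traffic. RAB7A, which directs late endosomes to lysosomes, was first with signals of 9453, 8639, 8363 and 7499 on low-salt arrays 1 to 4, against 11711, 9372 and 9054 on control arrays 1, 3 and 4. It ranked 150th of 42924 probe sets by mean signal in low salt and 116th in control. The groups overlapped, and the change was -0.15 on the log2 scale (95% interval -0.42 to 0.12, limma, adjusted p = 0.699). Here and below a change is low salt minus control on the log2(signal + 16) scale after quantile normalization, and p-values are adjusted by Benjamini-Hochberg over all 28616 tested probe sets unless said otherwise. The sign of the RAB7A change turned with the scaling, to 0.19 when array medians were set equal.

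RAB1A, which starts traffic out of the endoplasmic reticulum (ER), had signals of 5393, 6480, 4892 and 5640 in low salt and 5351, 5950 and 4305 in control. RAB18, found on the ER and on lipid droplets, had 5306, 4666, 5371 and 5598 in low salt and 4236, 4997 and 5046 in control. Both genes had overlapping groups, and their changes were each 0.05 (95% intervals -0.19 to 0.29 for RAB1A and -0.27 to 0.36 for RAB18). RAB2A, which acts between ER and Golgi, had 5092, 4087, 4407 and 5023 in low salt and 3645, 3621 and 4104 in control. Its groups touched through low-salt array 2, which lay just under control array 4, and its change was 0.18 (95% interval -0.13 to 0.49). None of these genes passed the test, and the intervals leave room for changes of up to 0.49 on the log2 scale.

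RAB6A, the Golgi RAB that serves traffic back towards the ER and outward from the Golgi, stood between RAB18 and RAB2A in signal. Its brightest probe set read 5407, 4842, 4208 and 5107 in low salt and 4148, 4631 and 3838 in control. On the normalized scale every low-salt array lay above every control array, by little: the means were 12.22 ± 0.07 in low salt (SD, n = 4) and 12.10 ± 0.03 in control (SD, n = 3), and the change of 0.12 had a limma SE of 0.11 (adjusted p = 0.711).

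The next places were held by RAB14 and RAB11A of recycling endosomes, RAB12, which passes cargo from recycling endosomes to lysosomes, RAB3A, a RAB of regulated exocytosis in neurons, RAB10, which brings glucose transporter vesicles to the plasma membrane of fat cells, and RAB4A of rapid endosomal recycling. These 11 genes were the ones with a probe set in the brightest 10% of the array, and all 11 stood at the same place in both groups. At the other end, 21 of the 55 RAB genes had no probe set in the brighter 50% of the array, among them RAB25, known from epithelia, and RAB3B and RAB3C, known from neurons and secretory cells. This is an order of array signal, which also carries the affinity of each probe set, and is no order of transcript abundance.

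**Figure D1:**
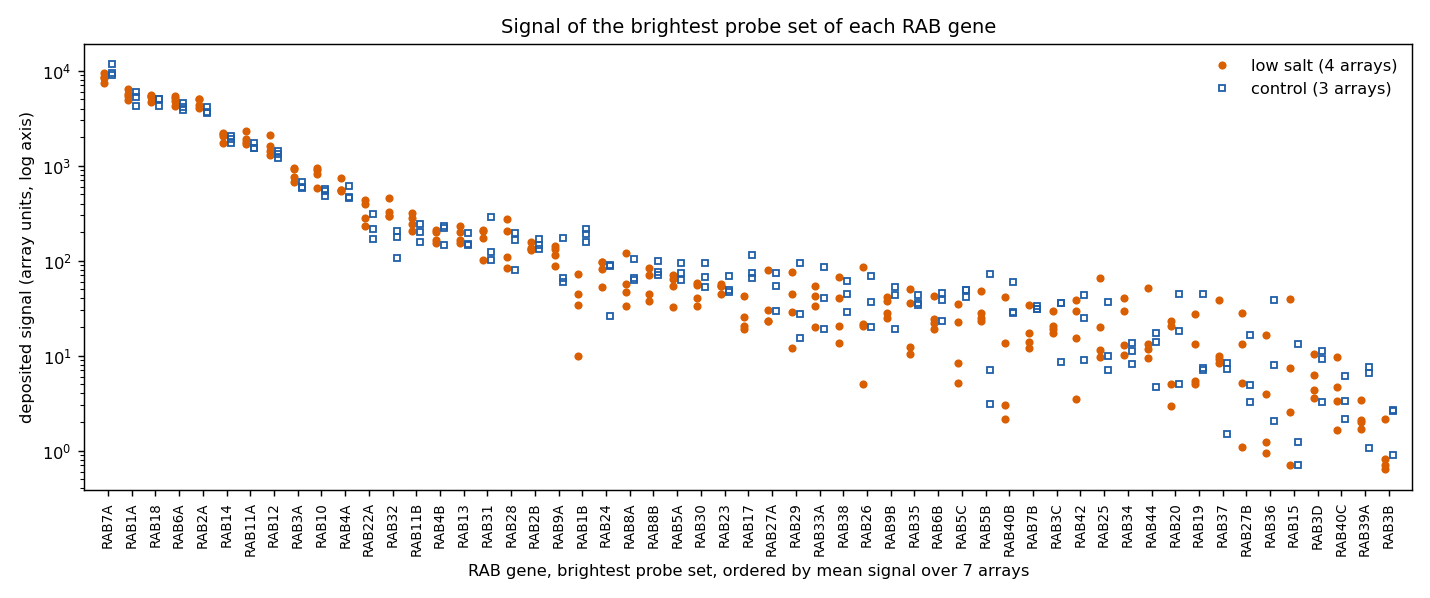
Deposited signal (log axis, array units) of the brightest probe set of each RAB gene on every array, with low salt left of control, genes ordered by mean signal over 7 arrays. RAB7A is first and RAB1A, RAB18, RAB6A and RAB2A follow in both groups.

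Over the family, 54 of the 73 tested probe sets had a change above 0 and 19 below 0, with a median of 0.16. Among all 28616 tested probe sets, 53.8% were above 0 and the median was 0.04. The probe sets of RAB34 and RAB25, the brighter RAB5B one and the dimmer RAB31 one reached the tested level only through low salt. That favoured a rise in them. The RAB40B probe set and the dimmest RAB12 one reached it only through control, which favoured a fall. At an unadjusted p under 0.05, 3 RAB probe sets were higher and 4 lower in low salt, which is 4.11% and 5.48% of those tested. Over the whole array these shares were 5.27% higher and 5.78% lower, so in this fit the family's counts lay near the background. The count of higher ones moved with the scaling and the arrays. With array medians set equal, 9 RAB probe sets (12.3%) were higher and 4 lower, where 9.92% of all probe sets were higher and 3.81% lower. As deposited, 2 were higher and 6 lower (8.22%), where 2.70% of all were higher and 10.9% lower. Without low-salt array 3 and control array 4, 9 (12.3%) were higher and 4 lower, where 7.66% of all were higher and 7.46% lower. After adjustment 1 RAB probe set, of RAB1B, was lower and none was higher, where 0.308% of all probe sets were lower and 0.0384% higher. The groups did not overlap for 5 RAB probe sets that were higher and 4 that were lower, against 5.13% and 5.68% of all probe sets.

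Scaling moved the zero point of these changes. The median change was -0.05 for the RAB probe sets and -0.18 for all tested probe sets in the values as deposited, and 0.39 for RAB and 0.26 for all with array medians set equal. Setting array medians equal moves all probe sets of an array by the same amount. The distance between the RAB median and that of all probe sets was therefore fixed between these scalings. Only the number of RAB probe sets above 0 could move, so the equal distance is no sign of robustness. The genes are related by name and the probe sets of a gene share transcripts, so these counts do not stand for independent observations.

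The size of the changes went with the level of the signal. Among the 13 RAB probe sets with a mean level of at least 9 on the log2 scale, changes lay between -0.18 and 0.46 and the median SE was 0.15. Among the 60 dimmer ones they lay between -1.77 and 1.05, with a median SE of 0.34. The median SE over all tested probe sets was 0.18 and 0.36 in the same classes. The bright members were therefore measured more precisely than the dim ones. Of the 7 RAB probe sets with an unadjusted p under 0.05, 6 were dim, near the share of 60 dim ones among the 73 tested.

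**Figure D2:**
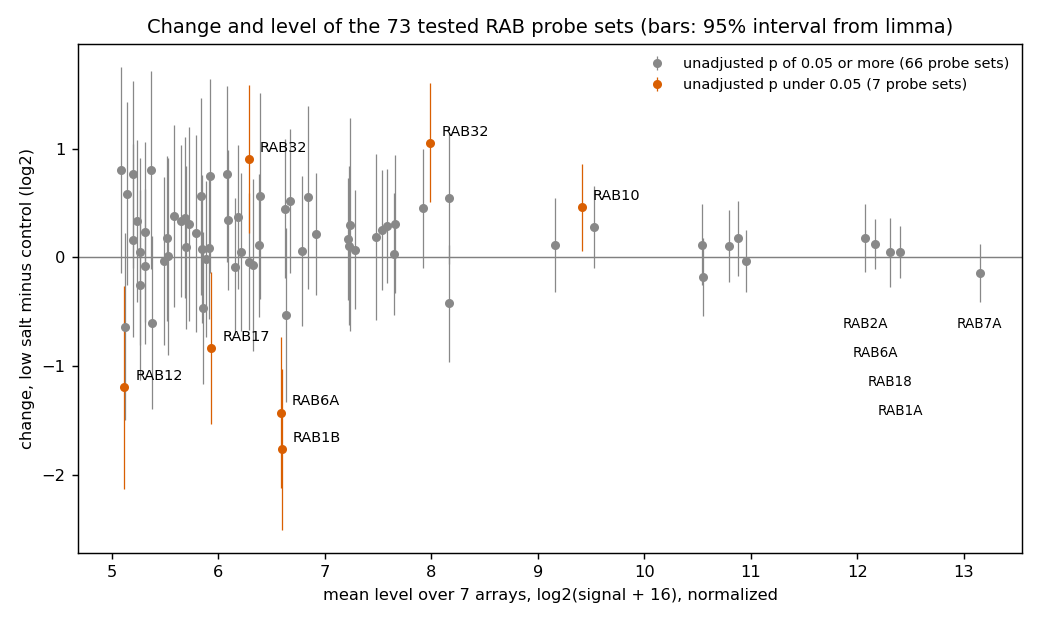
Change between low salt and control (log2, vertical axis) of the 73 tested RAB probe sets against their mean normalized level over 7 arrays (log2, horizontal axis); bars are 95% intervals from limma. The 13 probe sets at a level of at least 9 lie between -0.18 and 0.46, and the lowest point is a RAB1B probe set at -1.77. Orange points have an unadjusted p under 0.05, and the names at the right stand below the points they belong to.

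RAB1B, the close paralog of RAB1A that also serves traffic between ER and Golgi, was represented by 4 probe sets. Of these, 1 fell in low salt, and the other 3 did not pass or were too dim to test. They are given in turn, from the brightest signal down.

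The RAB1B probe set that fell, Cfa.17656.2.S1_a_at, read 9.92, 45.1, 72.9 and 33.9 on low-salt arrays 1 to 4, against 213, 157 and 190 on control arrays 1, 3 and 4. All 4 low-salt arrays lay below all 3 control arrays, with low-salt array 1 the lowest and low-salt array 3 the highest of its group. On the normalized log2 scale the means were 5.84 ± 0.61 in low salt (SD, n = 4) and 7.61 ± 0.17 in control (SD, n = 3). The change was -1.77 (SE 0.34, 95% interval -2.51 to -1.03), or 3.41-fold lower in low salt, with an adjusted p of 0.0494 from limma. By rank within each array, the probe set stood at percentiles 31.8, 66.9, 65.1 and 63.2 in low salt and 83.9, 81.4 and 82.9 in control.

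The RAB1B call lay at the edge of the threshold: its direction held under all 18 alternatives, with changes of -2.18 to -1.18, but the adjusted p was 0.0301 to 0.363 and passed under 7 of them. Leaving out control array 1 gave an adjusted p of 0.226, control array 3 gave 0.147, and low-salt arrays 1, 2 and 4 gave 0.116, 0.116 and 0.150, so each of these ended the call. Without both low-salt array 3 and control array 4, the change was -1.99 and the limma adjusted p 0.0301. That alternative was chosen after seeing the data, and it called 377 probe sets over the array, against 99 in the main fit.

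The RAB1B probe set Cfa.17656.1.S1_at read 107, 93.1, 105 and 59.4 in low salt and 73.2, 97.3 and 76.1 in control. The groups overlapped, with the highest and the lowest reading both in low salt. Its means were 6.82 ± 0.24 in low salt (SD, n = 4) and 6.37 ± 0.42 in control (SD, n = 3), and its change was 0.45 (SE 0.30, 95% interval -0.19 to 1.09, limma, adjusted p = 0.612).

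The other RAB1B probe sets were dim. CfaAffx.19915.1.S1_s_at read 21.4, 42.7, 39.5 and 24.9 in low salt and 24.9, 11.2 and 82.8 in control, so the control arrays enclosed the low-salt ones. The change of this probe set was 0.38 (SE 0.39, limma, adjusted p = 0.757), and it turned to -0.02 in the values as deposited. CfaAffx.9786.1.S1_s_at read 1.45, 17.1, 12.1 and 11.9 in low salt and 21.4, 18.8 and 35.5 in control and was too dim to test. Its deposited readings were all lower in low salt, whereas after normalization the groups overlapped, at 4.84 ± 0.53 in low salt (SD, n = 4) and 5.13 ± 0.08 in control (SD, n = 3).

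No other RAB1B probe set passed the test, and averaging the tested RAB1B probe sets gave a change of -0.31 (SE 0.24, limma, adjusted p = 0.668 over genes). In the array maker's naming, the ending _a_at marks a probe set shared by alternative transcripts of a gene, and _s_at one whose probes can match other transcripts, such as those of a paralog. RAB1A was measured only by an _s_at probe set. Which transcripts each probe set matches was not analysed here.

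**Figure D3:**
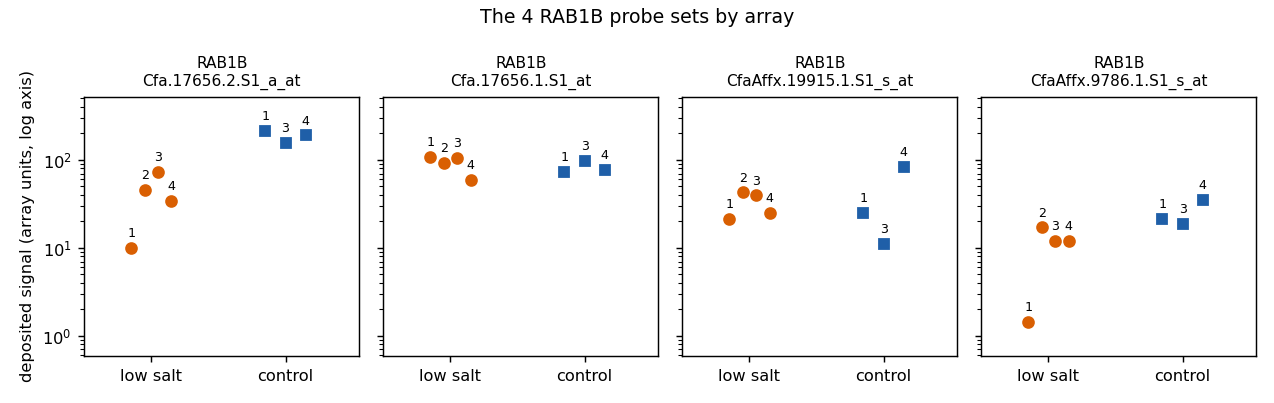
Deposited signal (log axis, array units) of each RAB1B probe set on every array, with low salt left of control and array numbers beside the points. For Cfa.17656.2.S1_a_at and the dim CfaAffx.9786.1.S1_s_at the 4 low-salt arrays lie below the 3 control arrays, and for the other probe sets the groups overlap.

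Among the 13 genes assigned to the ER and Golgi, 18 of 26 probe sets were tested. None was higher at an unadjusted p under 0.05 and 2 (11.1%) were lower, the RAB1B one above and one of RAB6A, where 5.78% of all probe sets were lower. The median change was 0.14, within a range of -1.77 to 0.80. The upper end was RAB34, which reached the tested level only through low salt. RAB6A, with 6 probe sets, was the gene of this list with the widest span of signal, its brightest mean being 648 times its dimmest.

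The second RAB6A probe set, Cfa.20401.1.S1_at, read 49.3, 32.2, 85.0 and 13.6 in low salt and 185, 121 and 178 in control. All low-salt arrays lay below all control arrays, with low-salt array 4 lowest. The change was -1.43 (SE 0.32, 95% interval -2.13 to -0.73, limma, adjusted p = 0.0981), which did not pass. The remaining tested RAB6A probe set had a change of 0.36 (SE 0.35), and 3 more were too dim to test.

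Of the 9 genes assigned to late endosomes and lysosomes, 17 of 19 probe sets were tested. Their changes ranged from -1.20 to 1.05 around a median of 0.31. At an unadjusted p under 0.05, 2 (11.8%) were higher, both of RAB32, and 1 (5.88%) was lower, of RAB12, against 5.27% and 5.78% of all probe sets. RAB32 is known for carrying cargo to lysosome-related organelles such as melanosomes and for anchoring protein kinase A at mitochondria.

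RAB32 had 3 probe sets, all tested, and all with changes above 0. Cfa.7355.1.A1_at read 327, 297, 294 and 453 in low salt and 205, 107 and 177 in control. Every low-salt array exceeded every control array, and low-salt array 4 was the highest. The change was 1.05 (SE 0.26, 95% interval 0.50 to 1.60), or 2.08-fold, and the limma adjusted p of 0.131 did not pass.

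The second RAB32 probe set, CfaAffx.1462.1.S1_at, read 52.4, 91.1, 89.1 and 92.0 in low salt and 68.9, 24.9 and 63.5 in control. Low-salt array 1 lay within the control readings as deposited, and the groups came apart only after normalization. Its change was 0.90 (SE 0.32, limma, adjusted p = 0.330). The last, CfaAffx.1462.1.S1_s_at, read 28.5, 52.9, 31.1 and 80.7 in low salt and 70.7, 17.6 and 38.5 in control, with groups that overlapped and a change of 0.56 (SE 0.42, adjusted p = 0.655).

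RAB12 had a bright probe set that differed little and a dim one that stood lower. The dim one, Cfa.13721.1.A1_at, read 0.846, 4.65, 23.9 and 5.83 in low salt and 104, 31.6 and 31.5 in control. The groups did not overlap, but most low-salt readings were near the bottom of the scale and control array 1 stood well above the other controls. The change was -1.20 (SE 0.44, limma, adjusted p = 0.343), whereas the brightest RAB12 probe set had a change of 0.12 (SE 0.17) and the remaining one 0.31 (SE 0.29). RAB38, the nearest relative of RAB32, had a change of 0.09 (SE 0.35), and RAB9A and RAB9B, which return receptors to the Golgi, had changes of 0.55 and, for the probe sets of RAB9B, 0.33 each, none of which passed.

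Of the 9 early endosome genes, 12 of 17 probe sets were tested. Their changes ranged from -0.84 to 0.80 around a median of 0.15. None was higher and 1 (8.33%, against 5.78% of all probe sets) was lower at an unadjusted p under 0.05. That was RAB17, an epithelial RAB of transcytosis, whose probe set CfaAffx.19039.1.S1_at read 25.4, 20.5, 42.1 and 19.1 in low salt and 115, 74.4 and 66.0 in control. The groups did not overlap, and the change was -0.84 (SE 0.33, limma, adjusted p = 0.376). The other RAB17 probe set read 8.06, 8.17, 18.4 and 6.37 in low salt and 66.2, 22.7 and 7.99 in control. Its groups overlapped, and it was too dim to test. RAB5A, RAB5B and RAB5C, the RABs of early endosome fusion, had changes of unlike sign, none of which passed: their brightest probe sets lay at -0.04, 0.80 and -0.60, with SEs of 0.29, 0.42 and 0.37. The RAB5B probe set, the upper end of this list, reached the tested level only through low salt, which favoured a rise.

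Of the 10 recycling and exocytic genes, 16 of 18 probe sets were tested. Their changes ranged from -0.53 to 0.75 around a median of 0.11. At an unadjusted p under 0.05, 1 (6.25%, against 5.27% of all probe sets) was higher, of RAB10, and none was lower. The brighter RAB10 probe set, Cfa.3815.1.S1_s_at, read 816, 897, 583 and 938 in low salt and 565, 541 and 480 in control. The groups came close without overlapping, since low-salt array 3 was just above control array 1. The change was 0.46 (SE 0.19, 95% interval 0.06 to 0.86, limma, adjusted p = 0.391). The dimmer RAB10 probe set read 87.0, 30.1, 106 and 38.8 in low salt and 96.7, 69.3 and 206 in control, with overlapping groups and a change of -0.53 (SE 0.37).

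Bright recycling members were measured by several probe sets each, and none of these passed. Both RAB11A probe sets lay at 0.11 (SE 0.15) and -0.18 (SE 0.17), and the RAB14 ones at -0.04 (SE 0.13), 0.17 (SE 0.16) and -0.42 (SE 0.25). RAB11B had changes of 0.45 (SE 0.25) and 0.75 (SE 0.41), neither of which passed.

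Of the 8 genes of regulated secretion, only 5 of 12 probe sets were tested, none with an unadjusted p under 0.05, and their changes ranged from 0.01 to 0.76. RAB3A had 941, 914, 668 and 758 in low salt and 598, 674 and 580 in control. As deposited, low-salt array 3 lay just below control array 3, and after normalization the groups came apart with a change of 0.28 (SE 0.18, limma, adjusted p = 0.593). RAB27A, which docks secretory granules, had a change of 0.08 (SE 0.32), and RAB27B, RAB3B, RAB3D and RAB37 were too dim to test. The remaining 6 genes, which include RAB23 of cilia and hedgehog signalling and RAB28 of photoreceptors, gave 5 tested probe sets with changes between -0.64 and 0.34. The lower end was RAB40B, which reached the tested level only through control.

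**Figure D4:**
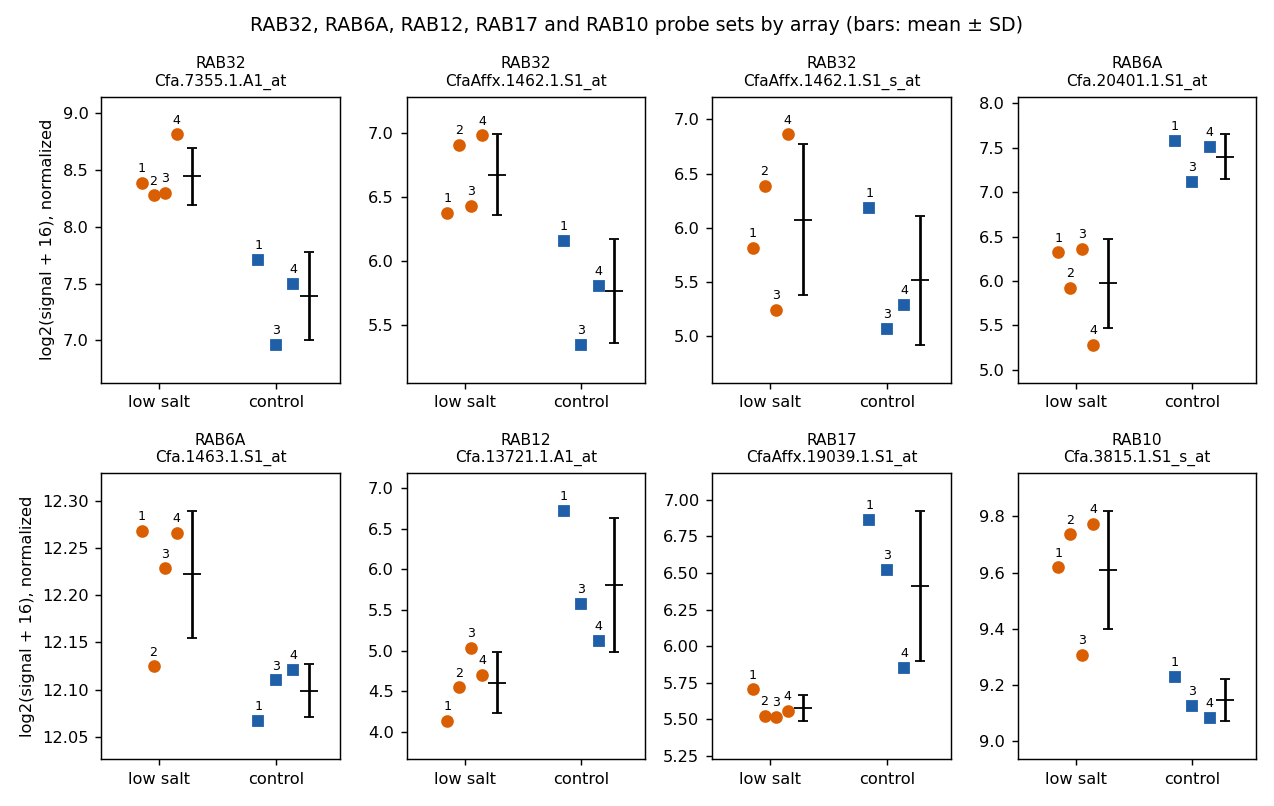
Normalized level, log2(signal + 16), on every array for the RAB32 probe sets, the dim and the brightest RAB6A probe set, and 1 probe set each of RAB12, RAB17 and RAB10, with low salt left of control; bars are mean ± SD, each panel has its own axis, and no axis starts at 0. Low-salt arrays lie above control arrays for RAB10, the brightest RAB6A and the first RAB32 pair, and below them for the dim RAB6A, RAB12 and RAB17.

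Probe sets of the same gene often differed in level. Of the 55 genes, 31 had several probe sets, and for 7 of these the brightest mean signal was at least 10 times the dimmest. The 46 RAB probe sets with a sequence accession in the platform annotation had a median signal of 123, and 40 were tested. The 53 without one had a median of 24.8, and 33 were tested, so signal went with the presence of an accession. The median over all probe sets was 32.0.

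Agreement in the change was examined within arrays, by subtracting the brightest tested probe set of a gene from each other tested one, with the brightest taken by mean normalized level. The 22 RAB genes with several tested probe sets gave 29 such pairs, with a median absolute difference in change of 0.23, where all 8289 pairs of the array had 0.33. No RAB pair passed an adjusted p of 0.05, against 0.109% of all pairs. At an unadjusted p under 0.05 there were 3 RAB pairs, of RAB6A, RAB1B and RAB12, where the share over the array was 10.7%.

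For RAB6A the dim probe set's change was below that of the brightest, the difference being -1.55 (SE 0.34, limma, adjusted p = 0.159 over all pairs). For RAB1B the difference was -2.22 (SE 0.49, limma, adjusted p = 0.159). For RAB12 it was -1.31 (SE 0.40, limma, adjusted p = 0.280), from a dim probe set that passed the filter only through control. In RAB6A and RAB12 the brightest probe set had a change above 0 and a much dimmer one stood lower in low salt. The RAB1B pair was nearly equal in mean level over all arrays, at 6.60 for the probe set that fell and 6.63 for Cfa.17656.1.S1_at. The one that fell was the brighter of the pair in control and by deposited signal, so its own change decides which counts as brightest. None of these differences passed after adjustment. The dimmer RAB10 probe set differed from the brighter one by -0.99 (SE 0.45, limma, adjusted p = 0.477).

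**Figure D5:**
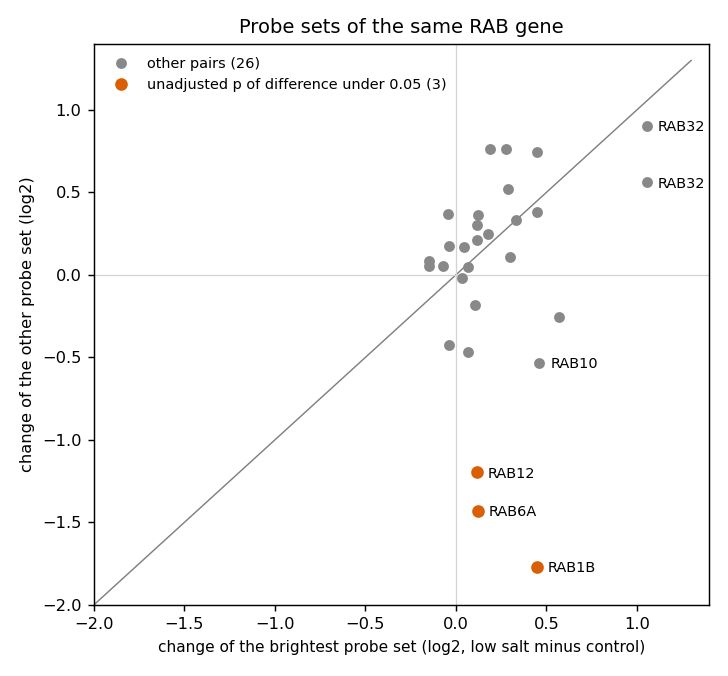
Change (log2, low salt minus control) of each other tested probe set of a RAB gene, on the vertical axis, against that of the gene's brightest probe set, on the horizontal axis, with the line of equal change. Of 29 pairs, those of RAB1B Cfa.17656.2.S1_a_at, RAB6A Cfa.20401.1.S1_at and RAB12 Cfa.13721.1.A1_at lie far below the line. The other pairs of these genes lie nearer to it, and the RAB32 pairs lie above 0 on both axes.

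The proteins that act on RABs were followed through a list of 146 genes, of which 137 were on the array and 117 tested by their brightest probe set, with p-values adjusted over 11381 genes. At an unadjusted p under 0.05, 8 were higher and 3 lower. None passed after adjustment, where 0.185% of all genes did (0.0351% higher and 0.149% lower). Among all genes 5.61% were higher and 4.92% lower at the same threshold, which puts these counts near or under the background in this fit, although their sum of 11 was 3 to 19 over the alternatives. The median change of the list was 0.03, against 0.05 for all genes.

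Of the 43 tested exchange factor genes 6 were higher and 1 lower at an unadjusted p under 0.05. Together these were 16.3% of the list, where 5.61% of all genes were higher and 4.92% lower. HPS1, which together with HPS4 is the exchange factor of RAB32 and RAB38, read 44.6, 29.4, 47.5 and 24.1 in low salt and 9.15, 8.85 and 18.2 in control. Its groups did not overlap, although all readings were dim, and the change was 1.21 (SE 0.33, limma, adjusted p = 0.241). Its partner HPS4 had a change of 0.16 (SE 0.30). RIN3, an exchange factor of the RAB5 family, had a change of 0.99 (SE 0.42, adjusted p = 0.439, limma), and DENND2C of the DENN domain family 0.83 (SE 0.35, adjusted p = 0.439, limma). HPS1, RIN3, DENND2C and RAB3GAP2, all among the higher genes of this list, passed the signal filter only through low salt. Their control means lay under the filter's limit, so the filter itself favoured a rise in these genes.

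Of the 36 tested effector genes 2 were higher and 2 lower at an unadjusted p under 0.05, together 11.1% of the list. Among all genes 5.61% were higher and 4.92% lower at the same threshold, so this list lay near the background in this fit. RPH3AL, a partner of RAB3 and RAB27 on secretory granules, read 106, 60.5, 155 and 53.0 in low salt and 249, 211 and 273 in control. All low-salt arrays lay below all control arrays, and the change was -1.16 (SE 0.28, limma, adjusted p = 0.165). GRIPAP1, an effector of RAB4 in neurons, had a change of 1.14 (SE 0.38, adjusted p = 0.339, limma) and RIMS1, a RAB3 partner at synaptic release sites, -0.78 (SE 0.34, adjusted p = 0.449, limma). GRIPAP1, too, passed the signal filter only through low salt.

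None of the 28 tested GTPase-activating protein genes had an unadjusted p under 0.05 by its brightest probe set. The smallest p belonged to TBC1D7 with a change of 0.37 (SE 0.20), TBC1D4, the brake on RAB10 in insulin-driven glucose transport, with 0.72 (SE 0.40), and EVI5L with 0.87 (SE 0.57). TBC1D4 passed the signal filter only through low salt, which favoured a rise. A dimmer probe set of TBC1D8, CfaAffx.4201.1.S1_at, read 25.4, 4.12, 47.1 and 14.3 in low salt and 1189, 440 and 259 in control. It fell by 3.80 on the log2 scale (SE 0.46, adjusted p = 0.00233, limma), with groups far apart. The 3 other TBC1D8 probe sets had changes of 0.55, 0.34 and 0.22, so the drop was seen on a single probe set of this gene.

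The 10 tested genes of prenylation, escort and GDP dissociation gave none with an unadjusted p under 0.05 and a median change of -0.30. The escort proteins CHM and CHML had changes of -0.71 (SE 0.39) and -0.47 (SE 0.26), and RABIF, which stabilises nucleotide-free RABs, -0.79 (SE 0.45). CHM passed the signal filter only through control, which favoured a fall. GDI2, a GDP dissociation inhibitor, had a change of 0.07 (SE 0.25) on its brightest probe set and 0.95 (SE 0.32, limma, adjusted p = 0.320) on a dimmer one.

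Under the study's own threshold of an unadjusted p of at most 0.05 and a 2-fold change, the methods' t-test on the same values called 1 RAB probe set higher and 3 lower, of 312 higher and 559 lower over the array. With limma the same threshold gave 1 higher and 3 lower RAB probe sets, where 1.67% of all tested probe sets were higher and 2.73% lower, 4.4% in all. After Benjamini-Hochberg adjustment the methods' t-test left no RAB probe set, and 4 probe sets over the array. At an unadjusted p under 0.05 it gave 9 RAB probe sets, or 12.3%, against 10.0% of all tested probe sets.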

How the data were processed

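Total RNA was extracted with Trizol, labelled with biotin and hybridised to a 1-colour Affymetrix canine array, per the labels' protocols. The deposited values are linear intensity values per probe set made by the authors with GCOS, per the submitters' processing notes; the sources used here do not give its version and settings. Groups and numbers were read from the sample titles. From the intensity values log2(value + 16) was computed, 111 control probe sets were left out, the arrays were quantile normalized, and the third of the rest that was dimmest by mean over both groups together was left out. The other 28616 were tested with limma 3.58.1 in R 4.3.3 (lmFit, eBayes with trend), low salt against control, without covariates since no batch is labelled. Changes on this scale understate those of dim probe sets. With 7 arrays, their number limits the precision.

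Symbols came from the platform annotation, and for 96 of the 99 RAB probe sets the gene number was found, with the same symbol, in a RefSeq table of assembly UU_Cfam_GSD_1.0. The probe sets of RAB32 did not match and keep the platform's symbol. No coordinates or sequences are given. Members, role lists and regulator lists were chosen with earlier results of these data known. Every RAB1B probe set, RAB probe sets with an unadjusted p under 0.05, the 5 RAB genes of highest signal, the 3 pairs of smallest p, regulators past an adjusted p of 0.05 and the 3 of smallest p in each regulator list were named; others were added as examples within their list after their values were seen. Single array measures were compared by exact permutation. The fits were tested on simulated data.

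Alternatives were other offsets, scalings, filters, weights and variance models, a replicate block, the methods' t-test, the mean of a gene's probe sets and leaving out each array.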

Additional observations from a re-analysis of the deposited data

Results flagged for a closer look

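Among the named RAB probe sets, 1 reading stood apart within its group. For the RAB1B probe set that fell, low-salt array 1 lay below the other low-salt arrays by 0.866 of the group's whole range on the normalized scale, above the 95% critical value of Dixon's test for 4 samples. Among 15 probe sets looked at in this way, chance would flag about 1 in 20 groups. Without low-salt array 1 the change was -1.42 and the limma adjusted p 0.116.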

How the results depend on the processing

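The RAB1B probe set Cfa.17656.2.S1_a_at kept its direction throughout and lost its call with an offset of 1 (-2.18), with no filter, with a filter at the median, without a variance trend and by the methods' t-test (-1.77 each), and with the replicate block (-1.90); leaving out single arrays gave -1.91 to -1.42, and leaving out both control array 4 and low-salt array 3 gave -1.99. The number of RAB probe sets called, 1, was 0 under these same settings and for gene means, and 0 to 1 without single arrays. RAB probe sets higher at an unadjusted p under 0.05, 3 in all, were 9 with array medians set equal (12.3%, against 9.92% of all probe sets), 5 with array weights, 1 with the block, 5 by the t-test, 2 to 5 without single arrays, and 9 without both control array 4 and low-salt array 3 (12.3%, against 7.66%), an alternative chosen after seeing the data. Those lower, 4 in all, were 6 as deposited, 1 by gene means and 2 to 4 without single arrays. Calls over the array, 99 in all, were 39 with offset 1, 165 as deposited, 27 unfiltered, 177 with weights, 19 without trend, 29 with the block, 4 by the t-test, 21 to 290 without single arrays and 377 without both. Regulators with an unadjusted p under 0.05, 11 in all, were 19 with medians equal, 5 with the filter at the median, 3 with the block, 7 by the t-test and 4 to 18 without single arrays. RAB pairs called, 0, were 1 with an offset of 64. Signs turned for RAB7A (0.19, medians equal), the RAB1B probe set CfaAffx.19915.1.S1_s_at (-0.019, as deposited) and RAB18 (-0.046 without control array 1 or without low-salt array 3, within -0.046 to 0.18 over single arrays left out). The cause of these shifts was not tested. Arrays 1, 3 and 4 share numbers across groups, but the deviations of same-numbered arrays correlated at 0.07, -0.26 and -0.18, so the numbers were not taken as pairs. Dim signal limits what can be seen: 26 of 99 RAB probe sets were not tested.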
